A study of Drosophila melanogaster with 7 samples.

Results

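The Niemann-Pick sterol transport family of Drosophila melanogaster comprises 2 Npc1 genes, Npc1a and Npc1b, and 8 Npc2 genes, Npc2a to Npc2h. The members were chosen by gene name, and all 10 were present among the 10902 genes of the count table. They were measured by RNA-seq in adult midguts from which crop, hindgut and Malpighian tubules had been dissected away. The control group (esgts> w1118, n = 3) carried the esgts driver crossed to the w1118 strain. The Shn-RNAi group (esgts> Shn-RNAi, n = 2) carried the same driver with a hairpin against schnurri, a nuclear cofactor of BMP signalling. The Shn-RNAi puc group (esgts> Shn-RNAi,PucE69/+, n = 2) carried, in addition, 1 copy of the E69 allele of puckered, a phosphatase that restrains JNK. The series title calls these last groups intestines with tumor and with severe tumor. Flies of all 3 groups were reared at 18 °C and moved to 29 °C for 7 days, and all carried the driver. The esg promoter is known to be active in intestinal progenitors, so the hairpin was driven there and in cells derived from them while the driver stayed on, whereas RNA came from the whole midgut. The labels give no age at the shift and leave it unsaid whether each library is an independent pool of flies. The p-values below therefore describe the scatter among these 7 libraries, which may be technical. A strain difference between the w1118 cross and the RNAi crosses cannot be told apart from the knockdown, and both comparisons with control share the same 3 control libraries.

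Flies cannot make sterols and take them from food, mainly through the midgut. In the endosomal system, soluble Npc2 proteins, which consist of a lipid-binding ML domain, are thought to hand sterol to the membrane-spanning Npc1 proteins, which move it out of the lumen. Npc1a is widely expressed and is needed for sterol release from late endosomes and for ecdysteroid synthesis, while Npc1b is enriched in the midgut and is required for uptake of dietary sterol, the role that NPC1L1 has in mammals. Npc2a and Npc2b act redundantly in sterol homeostasis, and the Npc2a, Npc2e and Npc2h proteins have also been found to bind bacterial cell wall products.

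Total counts ran from 11552527 to 18490676 per library. In the knockdown libraries schnurri transcripts were not lower: shn stood at 42.5, 47.4 and 42.4 CPM (counts scaled to a common library size by TMM) in control, at 68.6 and 54.1 in Shn-RNAi and at 66.5 and 69.7 in Shn-RNAi puc. Its log2 change was 0.48 in Shn-RNAi (adjusted p = 0.091), and shn was called higher in Shn-RNAi puc (log2 change 0.63, adjusted p = 0.031). Whole-gut RNA cannot show the level inside progenitors alone, so these values do not check the knockdown, and the group names used here are those of the labels. The libraries differed in how counts depended on transcript length. The genes with transcripts of at least 3358 bases minus those with transcripts of up to 1276 bases, relative to the mean over libraries, ran from -0.41 to 0.00 on the log2 scale in control, was 0.62 and -0.27 in Shn-RNAi, and 0.08 and 0.33 in Shn-RNAi puc. This bears on the family, because the 8 Npc2 transcripts span 651 to 839 bases and those of Npc1b and Npc1a 3971 and 5025. A fit with the length trend taken out is therefore given beside the main one where it changed the call of a gene named here. For shn it gave log2 changes of 0.03 (adjusted p = 0.91) in Shn-RNAi and 0.35 (adjusted p = 0.084) in Shn-RNAi puc, where the call was lost.

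All 10 members passed the filter on low counts and were tested by edgeR's quasi-likelihood test among 9076 genes, and a gene was called at a Benjamini-Hochberg adjusted p under 0.05 over all of them. In Shn-RNAi against control 1 member rose and 0 fell, where 6.06% of all tested genes rose and 3.56% fell. In Shn-RNAi puc against control 1 member rose and 1 fell, where 8.76% of all tested genes rose and 6.25% fell. The member that rose in both comparisons was Npc1a, and the member that fell was Npc2f. The family as a whole was thus called about as often as genes at large, and the results below concern single members. Groups did not overlap for 4 of 10 members in the first comparison and for 6 of 10 in the second, against 43.3% and 54.9% of all tested genes.

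**Figure D1:**
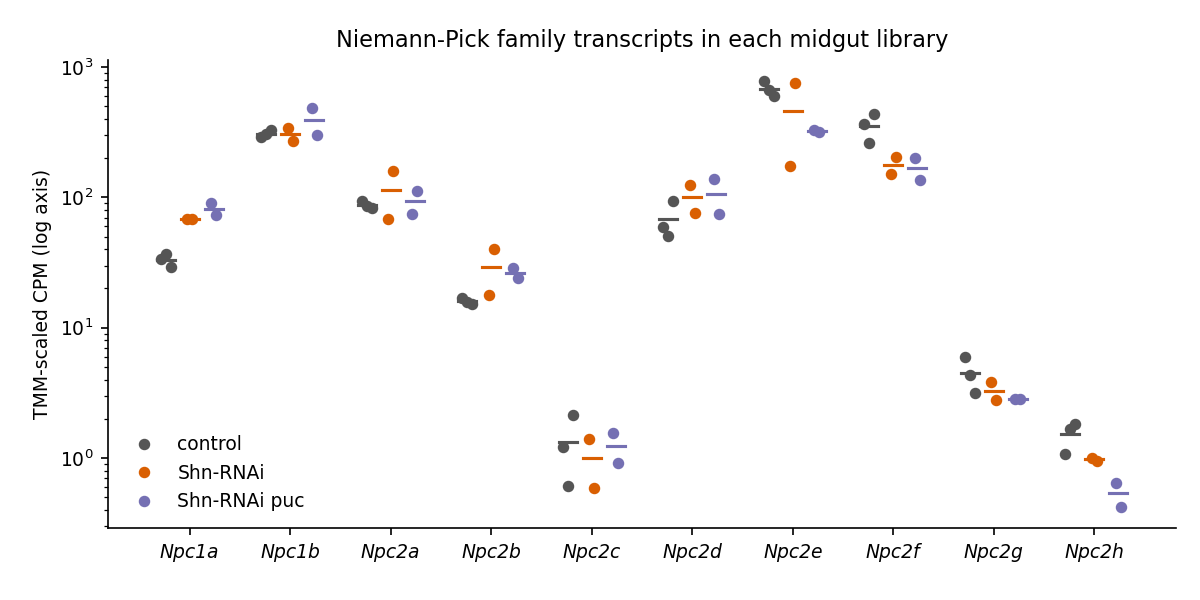
TMM-scaled CPM of the 10 family members on a log axis, with 1 point for each library (3 control, 2 Shn-RNAi, 2 Shn-RNAi puc) and a line at each group mean. All 4 knockdown libraries lie above control for Npc1a (68.5 to 90.4 against 29.5 to 36.9) and below it for Npc2f (135 to 205 against 261 to 432), and the Shn-RNAi libraries lie far apart for Npc2e (173 and 748).

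Npc1a, the endosomal sterol exporter, lies on chromosome 2L from 10213812 to 10221216 on the minus strand (build BDGP6.54) and has 7 annotated transcripts, the longest with 12 exons. It stood at 33.6, 36.9 and 29.5 CPM in control, 68.6 and 68.5 in Shn-RNAi, and 90.4 and 72.8 in Shn-RNAi puc. Every knockdown library was at least as high as 68.5 CPM and no control library exceeded 36.9, and the Shn-RNAi libraries were nearly identical. Npc1a rose 2.06-fold in Shn-RNAi (log2 change 1.04, SE 0.16, 95% interval 0.67 to 1.41, adjusted p = 0.0084). It rose 2.45-fold in Shn-RNAi puc (log2 change 1.29, SE 0.16, 95% interval 0.92 to 1.66, adjusted p = 0.0032). Both calls held without any 1 of the 7 libraries and under each of the 8 other settings tried. With the length trend taken out the log2 changes were smaller, 0.80 and 1.09, with adjusted p = 0.021 and 0.0051. Between Shn-RNAi puc and Shn-RNAi the log2 difference was 0.25, with a 95% interval of -0.16 to 0.66.

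Npc1b, the dietary sterol transporter, lies on chromosome X from 20934869 to 20939503 on the plus strand, with a single annotated transcript of 6 exons. Its level was 292, 307 and 326 CPM in control, 338 and 271 in Shn-RNAi, and 483 and 302 in Shn-RNAi puc. The groups overlapped in both comparisons, and the first Shn-RNAi puc library alone stood clearly above the rest. The log2 change was -0.02 in Shn-RNAi (95% interval -0.54 to 0.51, adjusted p = 0.97) and 0.35 in Shn-RNAi puc (95% interval -0.18 to 0.87, adjusted p = 0.35). The intervals of Npc1a and Npc1b thus did not overlap in either comparison, although no test of the difference between the genes was run. The ratio of Npc1b to Npc1a CPM was set side by side across libraries, as a description. It was 8.70, 8.33 and 11.1 in control, 4.92 and 3.96 in Shn-RNAi, and 5.35 and 4.14 in Shn-RNAi puc. All 4 knockdown libraries lay below all 3 control libraries, in a range that did not reach theirs.

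Among the Npc2 genes, Npc2a, the fly gene most like human NPC2, is a single-exon gene on chromosome 2L from 1988290 to 1988940. Its level was 93.5, 85.2 and 82.6 CPM in control, 67.6 and 160 in Shn-RNAi, and 75.2 and 112 in Shn-RNAi puc. Each knockdown group had a library below control and a library above it. Log2 changes were 0.39 in Shn-RNAi (95% interval -0.39 to 1.16) and 0.10 in Shn-RNAi puc (95% interval -0.68 to 0.88), and neither passed the test.

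Npc2b, which acts redundantly with Npc2a, lies on chromosome 3R from 14089517 to 14092425. It stood at 17.1, 15.9 and 15.3 CPM in control, 17.9 and 40.4 in Shn-RNAi, and 28.7 and 24.2 in Shn-RNAi puc. All knockdown libraries were above all control libraries, the first Shn-RNAi library by a narrow margin. The log2 change was 0.85 in Shn-RNAi (SE 0.30, 95% interval 0.17 to 1.54, adjusted p = 0.11) and 0.72 in Shn-RNAi puc (SE 0.30, 95% interval 0.03 to 1.40, adjusted p = 0.15). With the length trend taken out both passed, at log2 changes of 0.96 (adjusted p = 0.018) and 0.98 (adjusted p = 0.011). The Shn-RNAi value rested on the second library: without it the log2 change was 0.16, and without the first it was 1.33.

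Npc2f, whose own function is not well described, lies on chromosome 3R from 24137895 to 24140936 and has 4 exons. Its level was 365, 261 and 432 CPM in control, 152 and 205 in Shn-RNAi, and 200 and 135 in Shn-RNAi puc. The 4 knockdown libraries were all below the lowest control library. Npc2f fell by 1.07 on the log2 scale in Shn-RNAi puc, a 2.10-fold decrease (SE 0.28, 95% interval -1.72 to -0.42, adjusted p = 0.041). In Shn-RNAi the log2 change was -0.98 (SE 0.28, 95% interval -1.63 to -0.34) and missed the threshold at adjusted p = 0.065. It was called there by DESeq2 (adjusted p = 0.0039) and with the length trend taken out (log2 change -0.79, adjusted p = 0.041). The Shn-RNAi puc call was lost without control library 1 (adjusted p = 0.12), control library 3 (0.11), Shn-RNAi puc library 1 (0.095) or Shn-RNAi puc library 2 (0.29), and without the low-count filter (0.058). The log2 difference between the knockdown groups was -0.09, with a 95% interval of -0.78 to 0.60.

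Npc2e, whose protein has been found to bind bacterial cell wall products, lies on chromosome 3R from 10053332 to 10054348 on the plus strand. Its level was 777, 660 and 598 CPM in control, 173 and 748 in Shn-RNAi, and 330 and 315 in Shn-RNAi puc. Both Shn-RNAi puc libraries were below all control libraries, whereas 1 Shn-RNAi library lay at the control level and the other lay lowest of all. The log2 change was -0.56 in Shn-RNAi (SE 0.50, 95% interval -1.71 to 0.60, adjusted p = 0.53) and -1.07 in Shn-RNAi puc (SE 0.51, 95% interval -2.25 to 0.11, adjusted p = 0.20). The Shn-RNAi puc value passed in 2 of the 8 other settings, with these groups alone (adjusted p = 0.0060) and by DESeq2 (0.043). Without 1 library its log2 change ran from -1.17 to -0.97. In those fits it passed only where a Shn-RNAi library, outside this comparison, was left out. It was not called in any fit without a control or a Shn-RNAi puc library. The Shn-RNAi value was -1.96 (adjusted p = 0.013) without the second library and 0.14 without the first, so no direction can be given for it.

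Npc2d lies beside Npc2e on the opposite strand, 1007 bases away, from 10055356 to 10056083. Its level was 58.9, 50.5 and 93.6 CPM in control, 125 and 76.4 in Shn-RNAi, and 138 and 74.96 in Shn-RNAi puc. The groups overlapped through control library 3. Changes on the log2 scale were 0.58 in Shn-RNAi (95% interval -0.24 to 1.40) and 0.66 in Shn-RNAi puc (95% interval -0.16 to 1.48), and neither passed the test. The Npc2e to Npc2d ratio was 13.2, 13.1 and 6.39 in control, 1.38 and 9.80 in Shn-RNAi, and 2.39 and 4.20 in Shn-RNAi puc, so these neighbouring genes did not keep a fixed proportion.

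The remaining members, Npc2c, Npc2g and Npc2h, had the fewest reads of the family. Npc2c, 4168 bases from Npc2d, had 8 to 27 reads per library, Npc2g 38 to 83, and Npc2h, 215 bases from Npc2g on the same strand, 6 to 30. None passed the edgeR test in either comparison with control. Npc2h had the lowest levels of the family in Shn-RNAi puc, 0.65 and 0.42 CPM, against 1.07, 1.66 and 1.83 in control and 1.01 and 0.95 in Shn-RNAi. Its groups did not overlap in either comparison. The log2 change was -0.63 in Shn-RNAi (95% interval -1.55 to 0.29, adjusted p = 0.36) and -1.48 in Shn-RNAi puc (SE 0.43, 95% interval -2.48 to -0.48, adjusted p = 0.056). The Shn-RNAi puc value passed with upper-quartile scaling and with these groups alone, the lower adjusted p being 0.046. Npc2g stood at 5.94, 4.32 and 3.19 CPM in control, 3.81 and 2.79 in Shn-RNAi, and 2.86 and 2.83 in Shn-RNAi puc, and its groups overlapped in Shn-RNAi but not in Shn-RNAi puc. Its log2 changes were -0.44 (95% interval -1.15 to 0.27) and -0.66 (95% interval -1.38 to 0.07). For Npc2c the intervals, -1.77 to 1.06 and -1.46 to 1.34, were too wide to show a change of any moderate size at this depth.

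**Figure D2:**
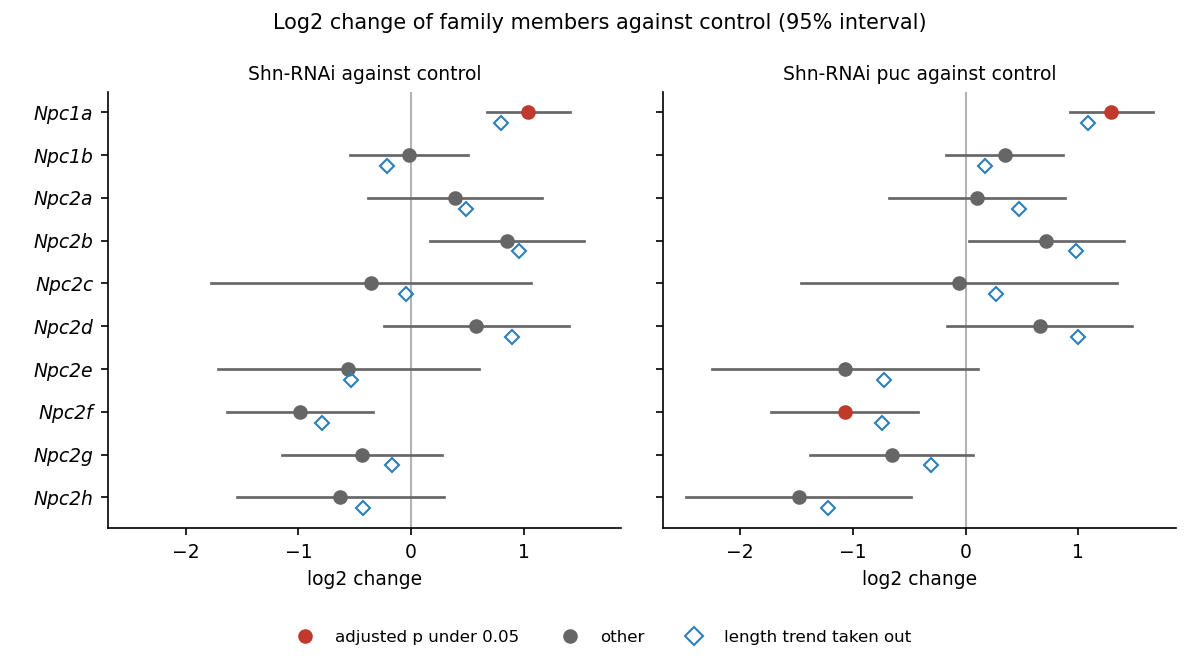
Log2 change of each member in Shn-RNAi (left) and Shn-RNAi puc (right) against control, with 95% intervals; red points passed an adjusted p under 0.05, and open diamonds give the value with the length trend taken out. Npc1a stands clear of 0 on both sides (1.04 and 1.29), Npc1b stays near it (-0.02 and 0.35), and Npc2f lies below it (-0.98 and -1.07).

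No member differed between Shn-RNAi puc and Shn-RNAi. In that comparison 0 of 10 members were called by edgeR, where 0.143% of all tested genes were called, and 0 members reached an unadjusted p under 0.05 in edgeR. DESeq2 and limma-voom called 0 members as well. The lowest adjusted p was 0.84, for Npc2h, with a log2 difference of -0.86 and a 95% interval of -1.95 to 0.24. Groups did not overlap for 2 of 10 members, Npc1a and Npc2h, against 28% of all tested genes. The intervals were wide, for example -1.77 to 0.74 for Npc2e, so the knockdown groups are not shown to be alike.

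Scaled by the length of the longest annotated transcript, the members spanned a wide range in control. Npc2e was the highest at 1026 CPM per kilobase and lay above 98.5% of 9049 genes. Npc2f followed at 495, then Npc2a at 134, Npc2d at 102, Npc1b at 77.7 and Npc2b at 19.2 CPM per kilobase. Npc2g at 6.80 and Npc1a at 6.63 stood near the middle of all genes, above 48.9% and 48.3% of them. Npc2h and Npc2c closed the order, both at 1.87 CPM per kilobase. The ranges of neighbours in this order overlapped for Npc2a and Npc2d, for Npc2d and Npc1b, for Npc2g and Npc1a, and for Npc2h and Npc2c, so their order was not resolved. In both knockdown groups Npc1a moved above Npc2g with no overlap, to 13.6 CPM per kilobase in Shn-RNAi and 16.2 in Shn-RNAi puc, above 64.8% and 68.6% of genes. The length trend of the libraries is not taken out of these levels, and Npc2g had only 38 to 83 reads per library. With the trend taken out, the log2 changes against control were 0.80 and 1.09 for Npc1a and -0.17 and -0.31 for Npc2g. In Shn-RNAi the top 4 members formed a chain of overlapping ranges: the libraries lay at 262 and 1132 CPM per kilobase for Npc2e, 213 and 287 for Npc2f, 104 and 246 for Npc2a, and 190 and 116 for Npc2d.

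**Figure D3:**
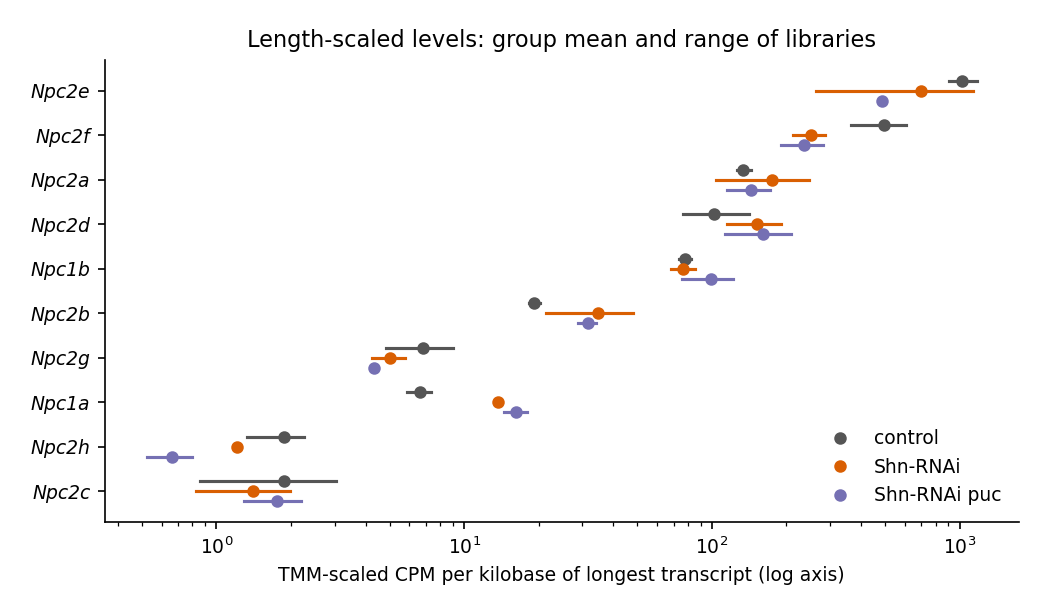
Length-scaled level (TMM-scaled CPM per kilobase of the longest transcript, log axis) of each member, ordered by its control mean; points are group means and bars join the lowest and the highest library of a group. Npc2e heads the order in all 3 groups at 1026, 697 and 487, and Npc1a passes Npc2g in the knockdown groups. The length trend of the libraries is not taken out of these levels.

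The make-up of the Npc2 pool was followed through the same length-scaled values. Npc2e and Npc2f together held 86.4%, 85.3% and 83.6% of the summed Npc2 level in the control libraries, 59.5% and 77.4% in Shn-RNAi, and 68.1% and 67.6% in Shn-RNAi puc. Their joint share was lower in every knockdown library than in every control library, but neither gene's own share was. Npc2e alone held 50.02% to 62.4% in control and 32.8%, 61.7%, 43.5% and 48.3% in the knockdown libraries, and Npc2f 22.9% to 33.6% against 26.7%, 15.7%, 24.5% and 19.3%. The share of Npc2d also overlapped, at 4.56% to 7.83% in control and 6.30% to 23.7% in the knockdown libraries. The share of Npc2b was 1.01% to 1.18% in control and 2.62% to 2.98% in the 4 knockdown libraries, and that of Npc2a was 7.02% to 8.18% against 10.1% to 17.4%. Shares sum to the whole, so a lower share of 1 member raises the shares of the others even where their own levels stay. The summed Npc2 counts were 1319, 1079 and 1229 CPM in control, 542 and 1234 in Shn-RNAi, and 777 and 665 in Shn-RNAi puc. Shn-RNAi overlapped control in this sum, and both Shn-RNAi puc libraries lay below it.

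**Figure D4:**
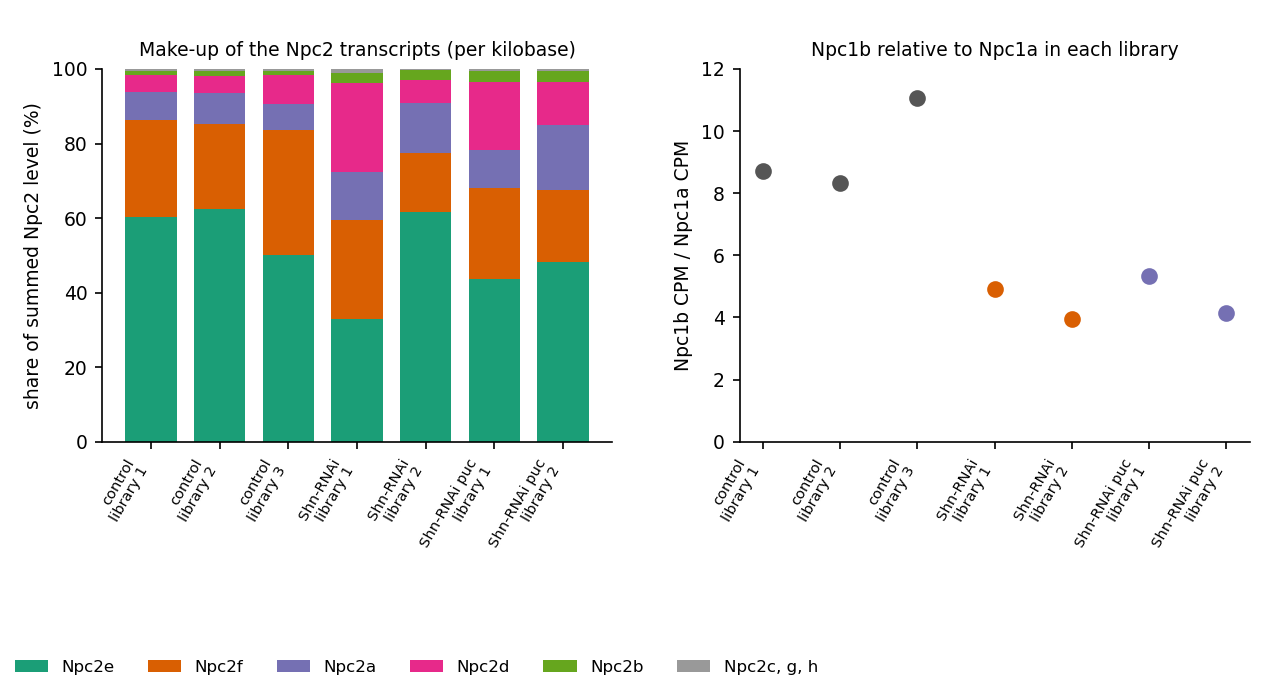
Left, share of the summed length-scaled Npc2 level held by each Npc2 gene in each library (%, Npc2c, Npc2g and Npc2h drawn together); right, the Npc1b to Npc1a ratio of CPM in each library. Npc2e and Npc2f hold over 83% in each control library and 59.5% to 77.4% in the knockdown libraries, and the ratio is 8.33 to 11.1 in control and 3.96 to 5.35 elsewhere.

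The Shn-RNAi libraries disagreed on several Npc2 genes, and the Shn-RNAi puc libraries on some members. These values limit what can be said of both groups. Shn-RNAi library 1 minus library 2 was -2.11 on the log2 scale for Npc2e, larger in size than for 99.3% of 6884 genes with a mean of at least 5 CPM. It was -1.24 for Npc2a and -1.16 for Npc2b, larger than for 96.6% and 96.0% of those genes. The median of the same gap over 581 genes with transcripts of 600 to 900 bases was -0.57, and the gaps of these 3 members were larger in size than those of 98.3%, 94.3% and 92.3% of them. Npc2d, of like length, had a gap in the other direction (0.71), and Npc1a had none (0.00). Between the Shn-RNAi puc libraries the gap was 0.88 for Npc2d, 0.68 for Npc1b, -0.57 for Npc2a and 0.56 for Npc2f. These were larger in size than for 97.5%, 94.6%, 91.1% and 90.9% of the 6884 genes. The gaps of Npc2e and Npc2g in that group were small, at 0.07 and 0.02. The part of length in the gaps of either group was not tested further.

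By the fixed naming rule, the genes whose levels over the 7 libraries were most like those of the called members were listed as a description. The search covered 6883 other genes with a mean of at least 5 CPM over all libraries. For Npc1a these were DIP-alpha, a neuronal-type immunoglobulin surface protein (Pearson r = 0.996), mesh, a smooth septate junction protein (r = 0.994), and Ptpmeg2, a tyrosine phosphatase (r = 0.994). All 3 rose in both comparisons, but with the length trend taken out Ptpmeg2 was not called in Shn-RNAi (log2 change 0.45, adjusted p = 0.074). DIP-alpha stood at 1.65, 1.88 and 1.04 CPM in control, 7.90 and 10.2 in Shn-RNAi, and 15.7 and 11.2 in Shn-RNAi puc. It met the limit on the mean only through its knockdown libraries. For mesh the levels were 694 to 867, 1406 to 1470 and 1405 to 1664 CPM. For Npc2f they were NP15.6, a subunit of mitochondrial complex I, CIA30, an assembly factor of that complex, and CG2604, with r of 0.998, 0.995 and 0.994. NP15.6 stood at 186, 152 and 223 CPM in control, 95.4 and 118 in Shn-RNAi, and 117 and 88.1 in Shn-RNAi puc, where it fell by 0.86 on the log2 scale (adjusted p = 0.039). With the length trend taken out that value was -0.51 and not called (adjusted p = 0.074). By contrast CG2604, not called in the main fit, then passed in Shn-RNAi puc (log2 change -0.48, adjusted p = 0.042), and it also passed there with these groups alone. With 7 libraries in 3 groups, any gene that separates the groups in the same way gives a high r.

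The genes next to the called members on the chromosome were not called. Npc1a lies between CG4901, 90 bases away, and Prosalpha6, a proteasome subunit gene 134 bases away. CG4901 averaged 15.9, 14.6 and 15.5 CPM in control, Shn-RNAi and Shn-RNAi puc, and Prosalpha6 87.9, 88.9 and 101 CPM, with 95% intervals of the Shn-RNAi change of -0.45 to 0.21 and -0.47 to 0.51. Npc2f lies between Sec10, an exocyst subunit gene 356 bases away (22.04, 19.9 and 22.9 CPM by group), and Kal1, 458 bases away (1.03, 0.54 and 1.11 CPM). Of 10 tested neighbours of family members, 2 were called in each comparison with control, both higher, where 6.06% and 8.76% of all tested genes rose. With so few neighbours this does not set them apart. They were CCHa1, a gut peptide hormone gene that ends 78 bases from Npc2b on the opposite strand (12.4, 37.7 and 55.9 CPM by group, log2 changes 1.60 and 2.17, adjusted p = 0.028 and 0.0077), and Fancl, 462 bases from Npc2e (32.8, 60.3 and 58.7 CPM, log2 changes 0.88 and 0.84, adjusted p = 0.046 and 0.041). The Shn-RNAi call of CCHa1 held in 1 of the 7 fits without 1 library, and without Shn-RNAi library 2 its value was 0.82 (adjusted p = 0.082). CCHa1 and Npc2b point towards each other but do not overlap in the annotation, while antisense RNA genes overlap Npc2c and Npc2e. No source used here states whether counting used strand, so reads from the stretches that these antisense genes share with Npc2c and Npc2e may not have been told apart.

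Of 19 other sterol and lipoprotein genes, 2 rose and 0 fell in each comparison with control, and the median log2 change was 0.11 and 0.06 against 0.03 and 0.02 over all tested genes. With 6.06% and 8.76% of all tested genes rising, these counts do not set the list apart. Hr96, a nuclear receptor that binds cholesterol and on which normal Npc1b expression is known to depend, rose in both. Its level was 39.9, 44.1 and 34.1 CPM in control, 59.8 and 88.7 in Shn-RNAi, and 70.5 and 75.4 in Shn-RNAi puc. All knockdown libraries lay above control, at log2 changes of 0.91 (SE 0.20, adjusted p = 0.028) and 0.89 (SE 0.20, adjusted p = 0.024). These calls held in 2 and 3 of the 7 fits without 1 library. The second count includes the fits without a Shn-RNAi library, which lies outside the groups compared there.

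LpR2, a lipoprotein receptor gene, rose in Shn-RNAi (log2 change 1.19, SE 0.29, adjusted p = 0.043). It stood at 25.5, 33.4 and 21.7 CPM in control, 82.3 and 40.8 in Shn-RNAi, and 55.5 and 53.7 in Shn-RNAi puc, where the log2 change was 1.02 (adjusted p = 0.055) and, with the length trend taken out, 0.83 (adjusted p = 0.029). Without Shn-RNAi library 1 the Shn-RNAi value was 0.60 (adjusted p = 0.17). CG3860, a gene of the oxysterol-binding protein family, rose in Shn-RNAi puc by 0.58 (SE 0.15, adjusted p = 0.035), and in Shn-RNAi it passed with the length trend taken out (log2 change 0.49, adjusted p = 0.041). The gut lipase and cholesterol esterase gene mag, known as a target of Hr96, was not called: it stood at 988, 682 and 1261 CPM in control, 542 and 342 in Shn-RNAi, and 549 and 216 in Shn-RNAi puc. All 4 knockdown libraries lay below control, at log2 changes of -1.14 (95% interval -2.15 to -0.14, adjusted p = 0.14) and -1.35 (95% interval -2.37 to -0.34, adjusted p = 0.077). DESeq2 alone called it, in both comparisons.

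**Figure D5:**
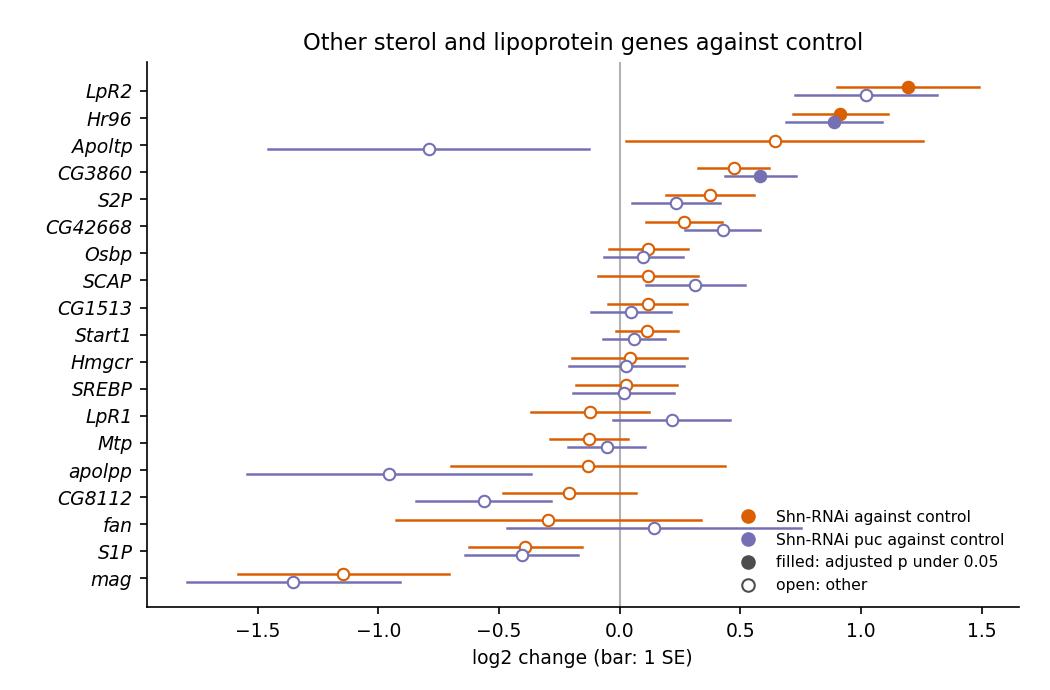
Log2 change against control of 19 other sterol and lipoprotein genes in Shn-RNAi (orange) and Shn-RNAi puc (purple), with bars of 1 SE and filled points for an adjusted p under 0.05. Hr96 is filled in both comparisons (0.91 and 0.89), LpR2 and CG3860 in 1 each, and mag is the lowest gene in both (-1.14 and -1.35).

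Other groups of genes related to the family by domain, compartment or use of sterol were counted as well. Of all tested genes, 6.06% rose and 3.56% fell in Shn-RNAi, and 8.76% rose and 6.25% fell in Shn-RNAi puc. With lists this short, the counts here and in the next paragraph do not set them apart. Among 5 other genes with a sterol-sensing domain, the domain that Npc1 proteins carry, 0 were called in either comparison, with a median log2 change of 0.09 and 0.03. Of 17 lysosomal membrane and hydrolase genes, the compartment in which Npc1a acts, 0 were called in Shn-RNAi, and 0 rose and 2 fell in Shn-RNAi puc: Hexo1 (log2 change -0.66, adjusted p = 0.041) and Hexo2 (-0.77, adjusted p = 0.038), both hexosaminidase genes. The summed level of the lysosomal list was 3756 to 3898 CPM in control, 3645 to 3971 in Shn-RNAi and 3727 to 4014 in Shn-RNAi puc, with overlapping groups. Of 13 tested genes of CD36-type scavenger receptors, proteins that take up lipid, 2 rose and 0 fell in each comparison: CG10345 (log2 changes 1.51 and 1.27) and Snmp2 (0.89 and 1.47).

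Of the genes that turn sterol into ecdysteroid, 3 of 9 passed the low-count filter, and 1 rose and 1 fell in each comparison. Cyp6t3, an ecdysteroid-synthesis P450, rose from 0.58 to 2.52 and 3.66 CPM (log2 changes 2.10 and 2.63, adjusted p = 0.016 and 0.0054). Its control level was near the floor, at 0.29, 0.66 and 0.80 CPM. A gene so low in control can pass the low-count filter through the knockdown libraries, so its calls do not show a rise of the list. The P450 shd, which makes the active hormone from ecdysone, stood at 5.80, 4.48 and 13.5 CPM in control and at no more than 1.84 CPM in the 4 knockdown libraries. It fell in both, at log2 changes of -2.67 and -2.75 and adjusted p = 0.050 and 0.037, the first of which lies just inside the threshold.

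Because some Npc2 proteins bind bacterial products, 19 tested genes of the IMD pathway and of peptidoglycan sensing were set beside them. In Shn-RNAi 1 rose and 0 fell, where 6.06% of all tested genes rose and 3.56% fell. In Shn-RNAi puc 3 rose and 2 fell, where 8.76% of all tested genes rose and 6.25% fell. IKKbeta, a kinase of the pathway, rose in both (log2 changes 0.88 and 0.93), and PGRP-LA and the transcription factor gene Rel rose in Shn-RNAi puc. With the length trend taken out, Rel was not called there (log2 change 0.73, adjusted p = 0.079), and PGRP-LA was called in Shn-RNAi as well (0.62, adjusted p = 0.013). The genes that fell were PGRP-SC1a and PGRP-SC1b, near-identical genes of peptidoglycan-cleaving amidases whose reads may be shared (log2 changes -3.65 and -3.12, adjusted p = 0.024 and 0.036). PGRP-SC1a stood at 309, 200 and 165 CPM in control, 20.2 and 164 in Shn-RNAi, and 15.2 and 20.7 in Shn-RNAi puc. As for Npc2e, the second Shn-RNAi library lay near control and the first with or below the Shn-RNAi puc libraries.

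Summed levels of visceral muscle, progenitor and hindgut markers did not overlap between control and either knockdown group, whereas those of other cell types overlapped in at least 1 comparison. A large part of the progenitor sum and of the hindgut sum came from 1 gene each, given below. Without that gene, peb, the progenitor sums of control and Shn-RNAi puc overlapped. The part of these markers in the values above was not tested. The counts below stand beside 6.06% of all tested genes that rose and 3.56% that fell in Shn-RNAi. In Shn-RNAi puc these shares were 8.76% and 6.25%. Of 14 visceral muscle markers, 0 rose and 4 fell in Shn-RNAi and 0 rose and 8 fell in Shn-RNAi puc, and the summed level was 4397 to 4686 CPM in control, 3007 to 3243 in Shn-RNAi and 2512 to 2876 in Shn-RNAi puc. Of 12 progenitor markers 2 and 1 rose and 0 fell, with summed levels of 140 to 185, 240 to 265 and 196 to 243 CPM. Of these sums peb alone held 83.1 to 93.1 CPM in control, 145 to 160 in Shn-RNAi and 116 to 142 in Shn-RNAi puc. Log2 changes of the 12 progenitor markers ran from -0.23 to 2.68 in Shn-RNAi and from -0.54 to 3.18 in Shn-RNAi puc. Of 11 enterocyte markers 3 rose and 0 fell in Shn-RNAi, and 2 rose and 2 fell in Shn-RNAi puc, with summed levels of 119921 to 149765, 82630 to 136951 and 80385 to 89169 CPM. Of 11 tested enteroendocrine markers 1 rose in Shn-RNAi, and 1 rose and 1 fell in Shn-RNAi puc, with sums of 335 to 379, 322 to 463 and 413 to 475 CPM. Of 3 hindgut markers 0 were called in Shn-RNAi and 2 rose in Shn-RNAi puc, with sums of 27.4 to 36.02, 49.7 to 58.0 and 62.9 to 64.1 CPM. Of these sums fkh held 18.3 to 28.8, 36.2 to 45.4 and 42.2 to 49.5 CPM, and it is counted again among the regional transcription factors below. Of 7 tested Malpighian tubule markers 0 were called, with sums of 542 to 689, 524 to 666 and 566 to 755 CPM. Of the tested fat body, hemocyte and tracheal markers (7, 7 and 8), 1, 0 and 0 rose in Shn-RNAi, 1, 1 and 0 rose in Shn-RNAi puc, and 0 fell. The hemocyte genes NimC1 and eater were at 0 in both Shn-RNAi libraries, and 10 of 15 germline and gonad markers, vas and bam among them, were not in the table. The only tested germline marker, piwi, rose in Shn-RNAi (log2 change 1.99, adjusted p = 0.033). Its level was near the floor, at 0.72, 0.72 and 0.24 CPM in control and 2.30 and 2.27 in Shn-RNAi. A gene so low in control can pass the low-count filter through the knockdown libraries, so this call does not show a rise of the list. The sum of that list was 0.96 to 2.32 CPM in control, 2.86 to 3.96 in Shn-RNAi and 1.95 to 2.19 in Shn-RNAi puc. Of 10 tested regional transcription factors 2 rose in Shn-RNAi and 4 in Shn-RNAi puc, and 0 fell. In whole-gut RNA, fewer cells of a type and less RNA per cell cannot be told apart. Levels here are shares of each library's counts, so a changed level of a family member is an amount neither per gut nor per cell.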

How the data were processed

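The authors deposited 1 table of unscaled, whole-number counts per gene. Salmon 1.0.0, DESeq2 and build BDGP6 appear in the submitters' processing notes, with no role given. Since a column's name shows its group but no sample, the 7 columns were matched to groups and called libraries. Positions and transcript lengths came from Ensembl's BDGP6.54 annotation, where 99.7% of the table's symbols were found. Testing used edgeR 4.0.16 in R 4.3.3: filterByExpr by group kept 9076 genes and removed 1826, TMM scaled the libraries, and 1 quasi-likelihood model of 3 groups gave 3 two-sided contrasts, adjusted by Benjamini and Hochberg over all tested genes. The residual degrees of freedom were 4 and the common biological coefficient of variation was 21.6%. The SE is the log2 change divided by the square root of F, and the 95% interval uses the moderated degrees of freedom. Levels are TMM-scaled CPM computed from the counts. Alternatives were DESeq2 1.42.0, limma-voom (limma 3.58.1), RLE and upper-quartile scaling, other low-count filters, each pair of groups alone, a length-trend offset and each library left out. The edgeR step was tested on simulated data. Named genes were the 10 members, up to 4 called genes of each list with the smallest p, the 3 genes most like each called member (Pearson r over log2 CPM, prior count 2) and direct chromosomal neighbours; mag, Rel and shn were named after their values were seen. Members and lists were chosen with earlier results of these data known. The counts behind a level are those of the library; intervals do not cover errors of assigning reads to similar genes.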

Additional observations from a re-analysis of the deposited data

How the results depend on the processing

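Npc1a kept its direction and its call in both comparisons with control in all 15 alternative fits. Over all 10 members and those comparisons, 266 of 300 alternative values kept direction and side of the threshold. Most of these values belong to members not called in the main fit, so the count says little about the calls. The Shn-RNAi puc call of Npc2f held in 7 of the 8 other settings and in 3 of the 7 fits without 1 library. Among those 3 were the fits without a Shn-RNAi library, outside that comparison. Members called in Shn-RNAi against control numbered 1, against 3 by DESeq2, 3 with the length trend taken out and 1 to 2 without 1 library. In Shn-RNAi puc against control they numbered 2, against 1 with no low-count filter, 5 with these groups alone and 1 to 4 without 1 library. All genes called numbered 873 (285 to 835 without 1 library), 1362 (2206 with these groups alone, 172 to 1872 without 1 library) and, between the knockdown groups, 13 (93 by DESeq2, 22 with the length trend taken out, 4 to 13 without 1 library). Uncalled members changed sign. In Shn-RNAi against control the log2 change without 1 library ran from -0.18 to 0.13 for Npc1b, -0.36 to 0.88 for Npc2a, -1.15 to 0.19 for Npc2c and -1.96 to 0.14 for Npc2e. In Shn-RNAi puc against control it ran from -0.035 to 0.65 for Npc1b, -0.21 to 0.36 for Npc2a and -0.51 to 0.45 for Npc2c, which was 0.13 by limma-voom and 0.27 with the length trend taken out. Between the knockdown groups it ran from -0.017 to 0.67 for Npc1b, -0.78 to 0.46 for Npc2a, -0.61 to 0.56 for Npc2b, -0.18 to 1.07 for Npc2c, -0.43 to 0.48 for Npc2d, -1.22 to 0.89 for Npc2e, -0.40 to 0.17 for Npc2f and -0.42 to 0.027 for Npc2g, and with the length trend taken out it was 0.024 for Npc2b and 0.047 for Npc2f. Of the neighbours, Prosalpha6 ran from -0.27 to 0.26 in Shn-RNAi (-0.017 with upper-quartile scaling) and -0.023 to 0.39 in Shn-RNAi puc, where CG4901 ran from -0.11 to 0.0026, Kal1 from -0.15 to 0.35 and Sec10 from -0.15 to 0.24 (-0.020 with the length trend taken out). Of 435 alternative values of 29 other named genes in each comparison with control, 353 and 339 kept direction and side of the threshold, and 71 and 82 kept direction but lost a call, most often without 1 library. The Shn-RNAi puc calls of CG3860, CG10345, Fancl, Hexo1, Hexo2, Rel, shn and PGRP-SC1b each held in 2 of the 7 fits without 1 library. In those fits the library left out was from Shn-RNAi, outside the compared groups. Without a control or a Shn-RNAi puc library, none of these calls held. The Shn-RNAi calls of Hr96 and LpR2 held in 2 of the 7 fits, those of CCHa1, shd and Fancl in 1, and those of Snmp2 and piwi in 0. By contrast, the calls of DIP-alpha held in 7 of 7. The cause of these changes was not tested. The counts of 2 called sterol and lipoprotein genes, in alternatives chosen after seeing the data, ran from 0 to 3 in Shn-RNAi and from 0 to 4 in Shn-RNAi puc. No paired analysis was run: the sample titles number the libraries through all groups, and the numbers that restart in the column names are tied to no sample, animal or batch. Groups of 2 and 3 libraries and, for Npc2c, Npc2g and Npc2h, reads in single or double digits limit what could be called.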

Other observations

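The genes whose levels over the 7 libraries were most like those of uncalled members were listed after their values were seen, as values only. For Npc2b the first was Tsp2A (Pearson r = 0.994 over 7 libraries), which encodes a smooth septate junction protein of the midgut and stood at 408, 384 and 407 CPM in control, 441 and 911 in Shn-RNAi, and 698 and 595 in Shn-RNAi puc. The second Shn-RNAi library was the highest for both genes, and the first lay close to control. For Npc2d the first was Nha2 (r = 0.993), a sodium/proton antiporter gene, at 54.5, 47.1 and 70.4 CPM in control, 88.3 and 61.5 in Shn-RNAi, and 94.0 and 65.8 in Shn-RNAi puc. Both genes were highest in the first library of each knockdown group. For Npc1b the most alike genes included spin (r = 0.968), a lysosomal membrane transporter gene, at 57.5, 62.7 and 64.0 CPM in control, 70.6 and 60.5 in Shn-RNAi, and 90.6 and 61.4 in Shn-RNAi puc.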
